A study of Mus musculus with 8 samples.

Results

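IL-6, STAT3 and IL-1 response genes were examined in mouse liver with 1 or 2 intact copies of Mtap, through 24 probe sets of 10 genes (Socs3, Stat3, Il6ra, Il6st, Il1r1, Il1rn, Lbp, Cd14, Steap4 and Serpina3n). Members were all probe sets that the platform annotation assigns to exactly 1 of these symbols, among 45037 probe sets in all, and different probe sets of a gene were kept apart. The tested animals were 4 heterozygous males (MTAP+/-), set against 4 wild-type males (MTAP+/+). Both groups were of the C57BL/6 strain and between 92 and 101 days old, with no treatment named, and each liver was measured on 1 Affymetrix array. Mtap encodes methylthioadenosine phosphorylase, the methionine salvage enzyme. How the altered allele was made is not given in the sources used here. All levels are RMA signals on the log2 scale, and each change is MTAP+/- minus MTAP+/+ on that scale.

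Interleukin-6 binds its receptor IL-6R alpha (Il6ra) and the shared signalling chain gp130 (Il6st), which activates JAK kinases and the transcription factor STAT3. In hepatocytes STAT3 drives the acute phase response together with interleukin-1, which signals through IL-1R1 and NF-kappaB and is blocked by the receptor antagonist encoded by Il1rn. SOCS3 is itself induced by STAT3 and shuts the gp130 receptor down, so its transcript is widely used as a readout of recent signalling.

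Socs3 had the largest change of the 24 probe sets, and Steap4 was the other gene whose best-measured probe set reached an unadjusted limma p under 0.05. No member passed the threshold of 0.05 after adjustment over all probe sets (0 of 24), whereas 16 of 45037 probe sets, 0.0355%, did. At a threshold of 0.1 the counts were 0 of 24 members and 19 probe sets (0.0422%). At an unadjusted p under 0.05 the members counted 5 of 24, or 20.8%, all of them higher in MTAP+/- liver, beside 8.41% of all probe sets in either direction and 4.56% higher. Groups did not overlap at 2 of the 24, both of Socs3 and both higher, beside 2.12% of all probe sets higher without overlap. The median change was 0.17 over the members and -0.01 over all probe sets, with 17 of 24 members above 0 beside 47.3% of all probe sets. With 1 probe set per gene, 2 of 10 members were at an unadjusted p under 0.05, both higher, beside 9.14% of all genes in either direction. A list of related genes shares livers and regulation, and probe sets of 1 gene can repeat the same reading. These counts therefore describe the members and test nothing about them as a set. Leaving out wild-type replicate 2 lowered the count of 5 to 3, as did leaving out wild-type replicate 3.

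**Figure D1:**
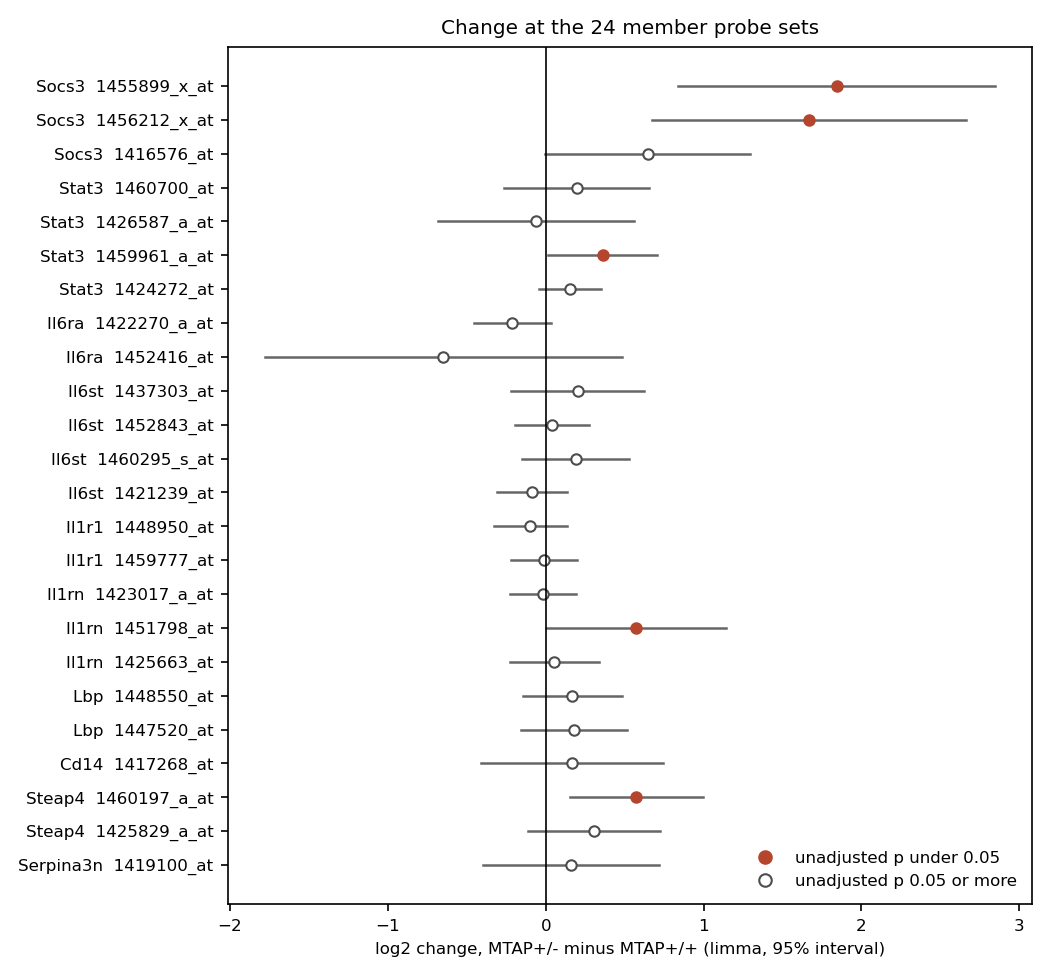
Change of each member probe set (limma estimate with 95% interval, log2 scale, MTAP+/- minus MTAP+/+), ordered by gene and, within a gene, by mean signal. Filled points mark the 5 probe sets with an unadjusted p under 0.05. Their intervals lie wholly above 0, which that p and a change above 0 imply.

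The promoters of Socs3 and Steap4 are shown because they were the genes with these p-values and because, of the members found in the RefSeq promoter table (build GRCm38.p6, 8 of 10 genes, not Lbp and Cd14), they alone held the STAT motif TTCNNNGAA. The search covered both strands of 11 windows from 250 bases before to 50 after each annotated start. The same motif is present in 8.30% of all 32851 windows in the table. Capitals mark the motif in the 250 bases before the start, read 5′ to 3′ along the gene. The match began 154 bases before the start in Socs3 and 116 bases before it in Steap4.
Socs3 promoter, chr11:117969367-117969616, minus strand: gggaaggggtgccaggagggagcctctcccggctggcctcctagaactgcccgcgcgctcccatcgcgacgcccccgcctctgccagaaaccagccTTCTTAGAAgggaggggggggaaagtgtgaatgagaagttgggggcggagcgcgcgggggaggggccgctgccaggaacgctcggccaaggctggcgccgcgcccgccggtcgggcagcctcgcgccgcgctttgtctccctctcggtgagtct
Steap4 promoter, chr5:7960222-7960471, plus strand: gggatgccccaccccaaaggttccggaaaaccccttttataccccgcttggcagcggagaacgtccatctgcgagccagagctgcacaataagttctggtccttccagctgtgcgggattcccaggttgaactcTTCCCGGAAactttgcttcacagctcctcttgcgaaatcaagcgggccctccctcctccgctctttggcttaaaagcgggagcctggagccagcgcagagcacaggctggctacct
The motif TTGCNNAA of C/EBP factors, partners of STAT3 at acute phase genes, was found in windows of 2 member genes, Il1r1 and Steap4, and in 10.8% of all windows. An NF-kappaB motif was found in windows of the same 2 genes and in 8.46% of all windows, and the Steap4 window held 2 matches to it. A match describes letters in a window and is not a measured binding site. The RefSeq gene span of Socs3 reaches farther upstream than the start used for its window.

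Genotype and tissue labels were checked first. All 4 probe sets of Mtap were lower in every MTAP+/- liver than in any MTAP+/+ liver, at 32.2% to 57.6% of the wild-type level. The 6 hepatocyte markers examined had mean signals from 11.4 to 14.4, and array pairs correlated between 0.983 and 0.994 over all probe sets. Heterozygous replicate 2 stood apart in its macrophage genes, as described with Cd14. The clock activator gene Arntl was between 4.82 and 5.93 in MTAP+/- and between 6.28 and 7.18 in MTAP+/+ livers at its brighter probe set, a change of -1.51 that did not pass the adjusted threshold (adjusted p = 0.127). Its dimmer probe set overlapped between the groups, with a change of -0.06 (adjusted p = 0.911). Dbp, named like Arntl after values were seen, had a change of 2.35 at its brighter probe set (limma adjusted p = 0.269). Signals there were 8.05 to 10.40 in MTAP+/- and 6.06 to 8.13 in MTAP+/+ livers, so the groups overlapped. At the dimmer Dbp probe set the change was also 2.35, again with overlap (limma adjusted p = 0.257). No collection time is given in the sources used here, and the part of time of day in any result was not tested.

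Socs3, the feedback inhibitor of gp130 signalling, was the member with the clearest difference. At the probe set of highest mean (1455899_x_at) its signal was 8.19, 6.33, 8.91 and 7.37 in MTAP+/- replicates 1 to 4, against 5.88, 6.16, 5.26 and 6.12 in MTAP+/+ replicates 1 to 4. Every MTAP+/- liver was above every MTAP+/+ liver, though heterozygous replicate 2 lay close to the wild-type values. Signals averaged 7.70 ± 1.11 in MTAP+/- and 5.86 ± 0.41 in MTAP+/+ livers (SD, n = 4 each), so the spread was wider among MTAP+/- livers. The change was 1.84 ± 0.45 (SE), a 3.59-fold difference with a 95% interval from 1.79 to 7.20, and its adjusted p over all probe sets was 0.288. An exact permutation test of this probe set gave p = 0.0286, the smallest that 4 against 4 allows. Any probe set whose groups do not overlap reaches that minimum, and 4.35% of all probe sets had no overlap. By the same exact permutation test p was 0.0286 for Socs3 at 1456212_x_at and 0.0571 for Steap4 at 1460197_a_at. This exact permutation test gave p = 0.114 for Stat3 at 1459961_a_at and for Il1rn at 1451798_at. These were the other members at an unadjusted limma p under 0.05. Without heterozygous replicate 2 the change of Socs3 at 1455899_x_at was 2.30 and the adjusted p 0.0580, the lowest for any member in the alternative fits. Without heterozygous replicate 3 the change was 1.44 (adjusted p = 0.422), and without wild-type replicate 1 the adjusted p was 0.630.

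The other Socs3 probe sets ordered the MTAP+/- livers the same way. Signals at 1456212_x_at were 7.41, 5.65, 8.15 and 6.46 in MTAP+/- and 5.29, 5.57, 4.63 and 5.53 in MTAP+/+ livers, again without overlap, with a change of 1.67 (adjusted p = 0.351). At 1416576_at they were 6.13, 5.48, 7.14 and 5.68 in MTAP+/- and 5.44, 5.37, 5.62 and 5.41 in MTAP+/+ livers. Here wild-type replicate 3 exceeded heterozygous replicate 2, and the change was 0.65 ± 0.29 (SE, adjusted p = 0.596). It was 0.30 without heterozygous replicate 3 and 0.85 without heterozygous replicate 2. The first 2 probe sets carry the x suffix, which Affymetrix gives to sets whose probes may bind other transcripts too, and the third does not. Which of the changes, 1.84, 1.67 or 0.65, is nearest to the true ratio was not tested.

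**Figure D2:**
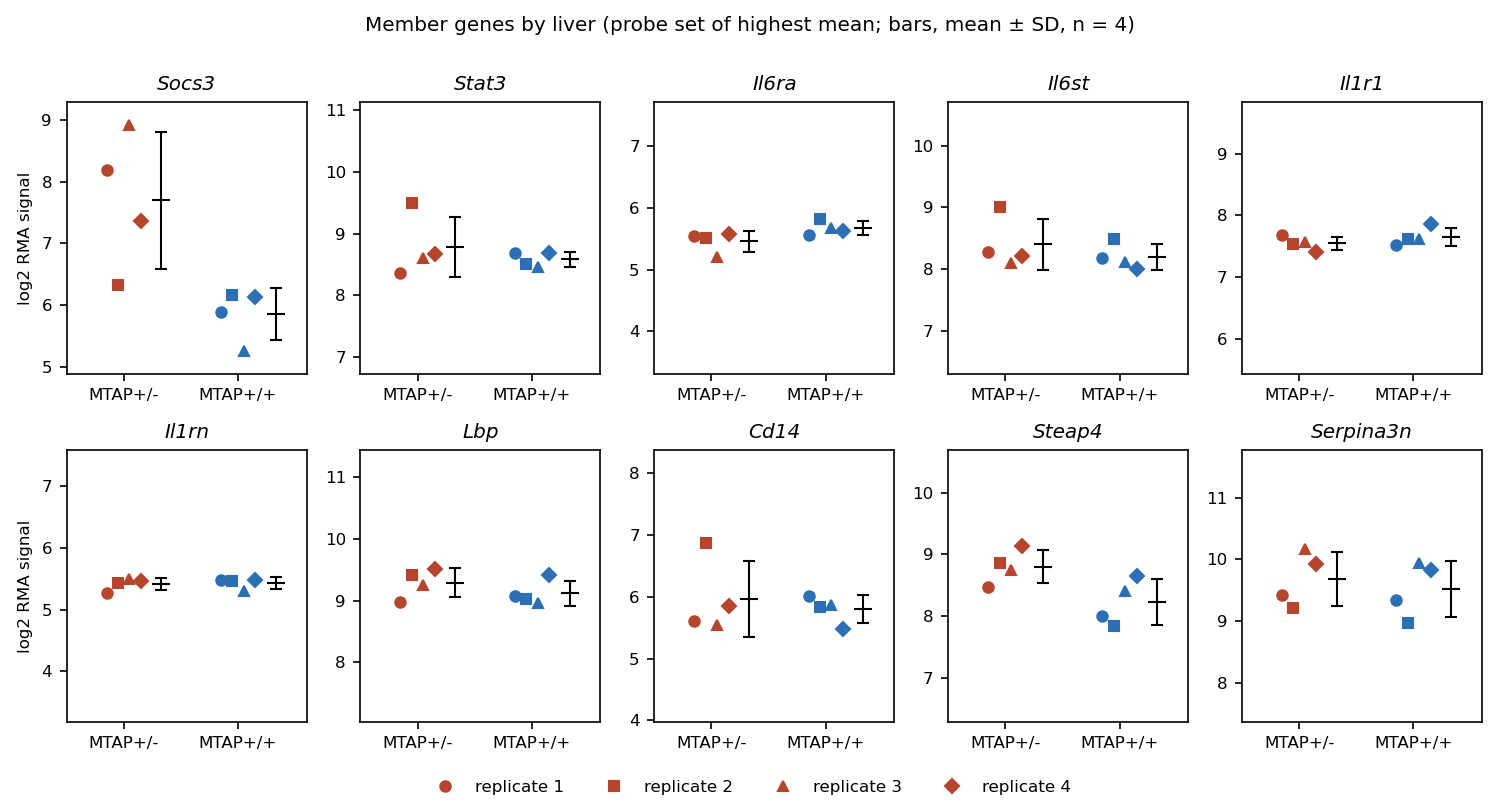
RMA signal (log2) in each liver for the probe set of highest mean of every member gene, MTAP+/- left and MTAP+/+ right, with marker shapes for replicates and bars for mean ± SD. All panels span the same height, and Socs3 is the panel where the 2 groups do not overlap (6.33 to 8.91 in MTAP+/-, 5.26 to 6.16 in MTAP+/+).

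Stat3, the transcription factor that carries the signal to the nucleus, differed by less than the spread between livers at its 2 brightest probe sets. At 1460700_at its signal was 8.36, 9.50, 8.60 and 8.67 in MTAP+/- and 8.69, 8.50, 8.46 and 8.69 in MTAP+/+ livers. Heterozygous replicate 2 was high and the other 7 livers lay within a narrow band. The change there was 0.20 ± 0.21 (SE, adjusted p = 0.852), and -0.04 without that liver. At 1426587_a_at signals were 7.10, 8.59, 7.49 and 7.65 in MTAP+/- and 8.05, 8.01, 7.67 and 7.35 in MTAP+/+ livers, with a change of -0.06 that became -0.36 without heterozygous replicate 2. The dimmer 1459961_a_at was among the 5 members with an unadjusted p under 0.05, with 4.26, 4.64, 4.36 and 4.16 in MTAP+/- and 4.40, 3.89, 3.71 and 3.98 in MTAP+/+ livers (change 0.36, adjusted p = 0.574). Wild-type replicate 1 was above 3 of the MTAP+/- livers at that probe set. The fourth, 1424272_at, had a change of 0.15 at signals below the median of all probe sets (adjusted p = 0.691).

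The receptor chains gave no shared direction. Il6ra had a change of -0.21 ± 0.11 (SE) at 1422270_a_at (adjusted p = 0.660), with signals from 5.20 to 5.58 in MTAP+/- and from 5.55 to 5.82 in MTAP+/+ livers. Without heterozygous replicate 3 that change was -0.13. Its second probe set, 1452416_at, varied more than any other member in MTAP+/+ livers, at 4.59, 6.19, 4.34 and 5.34 in MTAP+/- and 6.10, 6.60, 6.13 and 4.23 in MTAP+/+ livers. Wild-type replicate 4 was the lowest of all 8 there, so the change of -0.65 (adjusted p = 0.786) became -1.16 without it, at an adjusted p of 0.342. The 4 probe sets of Il6st, the gp130 chain, had changes from -0.09 to 0.20. The brightest, 1437303_at, again singled out heterozygous replicate 2, at 8.28, 9.003, 8.11 and 8.22 in MTAP+/- and 8.18, 8.49, 8.11 and 8.01 in MTAP+/+ livers. Without that liver its change was 0.002, compared with 0.20 over all 8.

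On the IL-1 side the receptor and its antagonist differed little at their brightest probe sets. Il1r1, the signalling receptor, had 7.67, 7.54, 7.57 and 7.41 in MTAP+/- and 7.51, 7.61, 7.61 and 7.85 in MTAP+/+ livers at 1448950_at. The change was -0.10, with a 95% interval from -0.33 to 0.13. Il1rn at 1423017_a_at had a change of -0.02, with an interval from -0.23 to 0.19, and signals in all 8 livers lay between 5.27 and 5.49. A second Il1rn probe set, 1451798_at, had 3.91, 5.12, 4.003 and 4.36 in MTAP+/- and 4.21, 3.42, 3.63 and 3.85 in MTAP+/+ livers. Its change of 0.57 (adjusted p = 0.591) was 0.31 without heterozygous replicate 2, which held the highest signal by far. The third Il1rn probe set and the second of Il1r1 had changes of 0.05 and -0.01.

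Lipopolysaccharide sensing is represented by Lbp, a secreted acute phase protein that hands lipopolysaccharide to CD14, and by Cd14, the co-receptor that passes it to TLR4. Lbp had 8.97, 9.41, 9.26 and 9.51 in MTAP+/- and 9.08, 9.03, 8.96 and 9.42 in MTAP+/+ livers at 1448550_at. The groups overlapped, with a change of 0.17 and a 95% interval from -0.15 to 0.48 (0.09 to 0.27 when any 1 liver was left out), and the dimmer Lbp probe set had a change of 0.18. Cd14 had 5.60, 6.87, 5.54 and 5.86 in MTAP+/- and 6.01, 5.84, 5.87 and 5.48 in MTAP+/+ livers. Its change of 0.17 (adjusted p = 0.907) was -0.13 without heterozygous replicate 2.

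Macrophage genes stood apart in the same liver. Of 7 Kupffer cell markers 5 had changes above 0, beside 45.3% of all genes, and 0 passed the adjusted threshold. At an unadjusted p under 0.05 there were 3, all higher (Cd5l, Adgre1 and Timd4), beside 9.14% of all genes in either direction and 4.40% higher. The change was 0.78 for Adgre1 and 0.42 without heterozygous replicate 2, and for Timd4 it was 0.50 and 0.29 without that liver, while Cd5l had 0.42 and 0.31 without it. Their mean level ranged from 7.99 to 8.78 in MTAP+/- and from 7.85 to 8.27 in MTAP+/+ livers. In heterozygous replicate 2 Marco, a scavenger receptor of macrophages, was 9.97, beyond 4.73 to 6.44 in the other MTAP+/- livers and 4.70 to 7.60 in MTAP+/+ livers. Clec4f, the lectin that defines resident Kupffer cells, was 7.06 there, below 9.005 to 9.45 in the other MTAP+/- livers and 8.85 to 9.13 in MTAP+/+ livers. Vsig4, a complement receptor of these cells, was likewise low in it, at 8.20, against a lowest value of 9.02 elsewhere. Their part in the Stat3, Il6st, Il1rn and Cd14 signals of this liver was not tested. In whole liver a change in the number of cells of a type and a change in RNA per cell cannot be told apart. Neutrophil markers averaged 4.54 to 5.34 in MTAP+/- and 4.46 to 4.88 in MTAP+/+ livers, and Mpo and Elane, which define granulocyte precursors, lay at or below 4.85 in all 8. The calprotectin genes S100a8 and S100a9, abundant in mature neutrophils, were highest in heterozygous replicate 4. S100a8 was 6.45 there, against 4.31 to 4.99 in the other MTAP+/- livers and 3.78 to 4.64 in MTAP+/+ livers (change 0.71). S100a9 was 7.66 there, against 5.03 to 5.87 in the other MTAP+/- livers and 5.12 to 5.69 in MTAP+/+ livers (change 0.74). That liver was also the highest for Saa1, Saa2 and the brightest Nfkbiz probe set, and the part of neutrophils in those signals was not tested. None of the 6 neutrophil markers measured (0 of 6) and 1 of 25 markers of lymphocytes, sinusoidal endothelium, stellate cells, bile duct cells and red blood cells, Nkg7, reached an unadjusted p under 0.05.

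**Figure D3:**
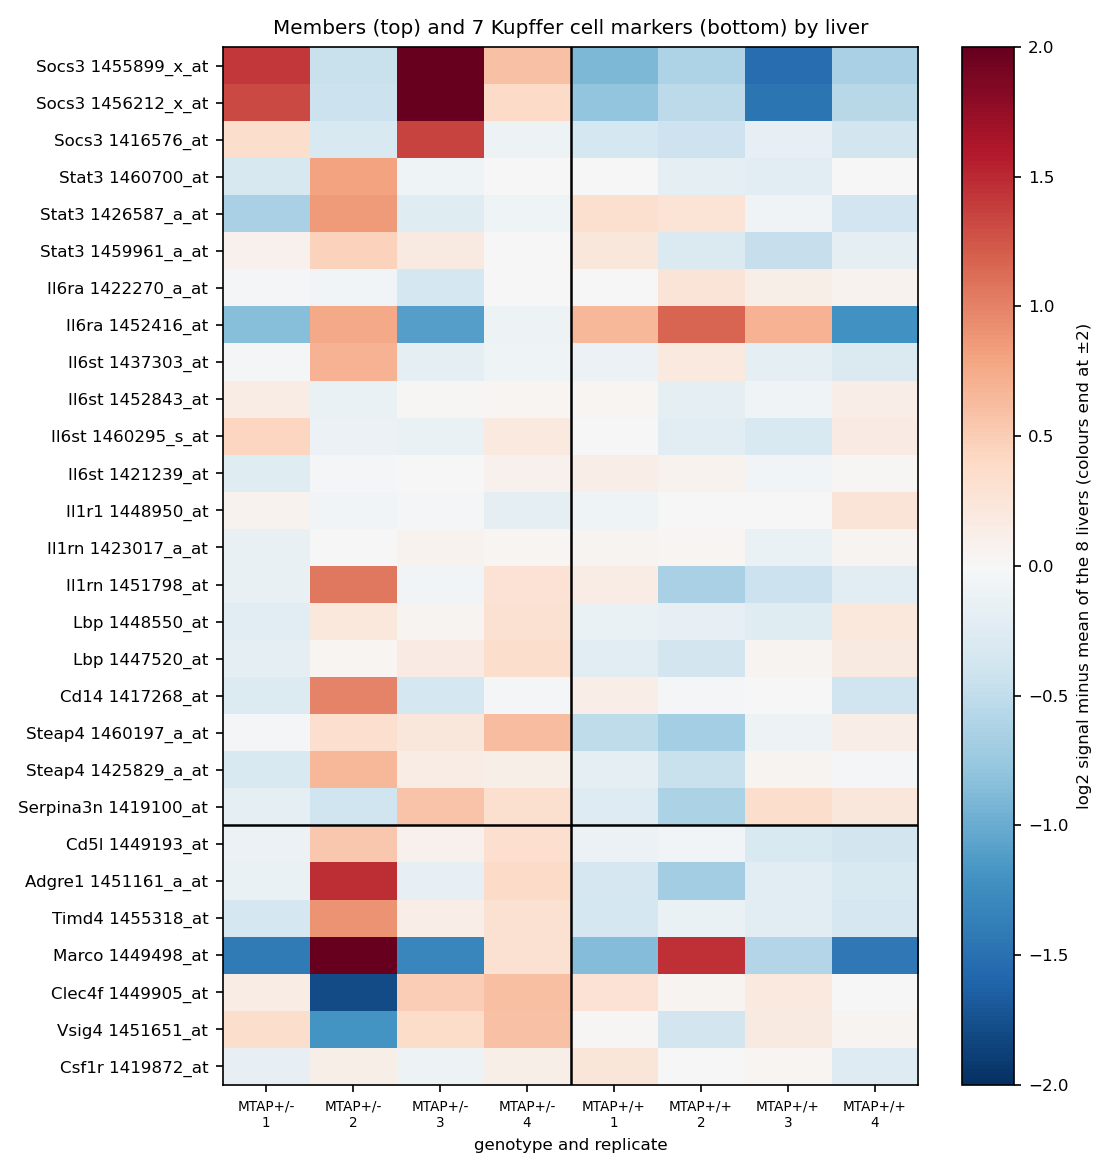
Deviation of each liver from the mean of the 8 livers (log2 units, colour) for the 21 member probe sets whose mean is above the median of all probe sets, and for 7 Kupffer cell markers under the line. Heterozygous replicate 2 is high for Stat3, Cd14, Marco and Adgre1, low for Clec4f and Vsig4, and among the MTAP+/- livers lowest for Socs3.

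The members had different patterns across livers. Heterozygous replicate 2 held the highest of the 8 signals at 7 of 24 member probe sets, 29.2%, beside 13.2% of all probe sets. Those 7 belonged to Stat3 (3), Il6st, Il1rn, Cd14 and Steap4. At all 3 probe sets of Socs3 the same liver was the lowest of the 4 MTAP+/- livers, at -0.84 to -1.83 from the mean of the other 3. Socs3 peaked instead in heterozygous replicate 3, at all 3 of its probe sets. Wild-type replicate 2 held the lowest of the 8 signals at 9 of 24 member probe sets, beside 15.3% of all probe sets. They belonged to Socs3, Stat3, Il6st, Il1rn, Lbp, Steap4 and Serpina3n, with both Steap4 probe sets among them.

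Steap4, a metalloreductase of the plasma membrane induced by inflammatory cytokines, was the second gene by p. At 1460197_a_at its signal was 8.48, 8.85, 8.74 and 9.13 in MTAP+/- and 8.01, 7.84, 8.41 and 8.65 in MTAP+/+ livers. Wild-type replicate 4 exceeded heterozygous replicate 1, and otherwise the MTAP+/- livers were above the MTAP+/+ livers. Signals averaged 8.80 ± 0.27 in MTAP+/- and 8.23 ± 0.37 in MTAP+/+ livers (SD, n = 4 each). The change was 0.57 ± 0.19 (SE), a 1.49-fold difference with a 95% interval from 1.11 to 1.99, at an adjusted p of 0.437. It ranged from 0.45 to 0.72 when any 1 liver was left out. The second probe set, 1425829_a_at, had 6.00, 6.98, 6.46 and 6.43 in MTAP+/- and 6.11, 5.88, 6.37 and 6.28 in MTAP+/+ livers, with a change of 0.31 (adjusted p = 0.710) that was 0.14 without heterozygous replicate 2.

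Serpina3n, a secreted serine protease inhibitor of the acute phase, varied more within than between genotypes. Its signal was 9.42, 9.21, 10.16 and 9.93 in MTAP+/- and 9.33, 8.96, 9.95 and 9.83 in MTAP+/+ livers, and the change was 0.16 with a 95% interval from -0.40 to 0.72. The replicates had the same order in both genotypes. With a replicate block in the limma fit the adjusted p was 0.655, compared with 0.907 without it. Leaving out 1 liver moved it between -0.02, without wild-type replicate 2, and 0.32, without heterozygous replicate 2, and its sign turned in 2 alternative fits. The Serpina3 genes are close copies of each other, so this probe set may also carry signal from relatives. Of 10 relatives listed, 2 had a probe set with that sole symbol, Serpina3a (change 0.04) and Serpina3i (change -0.14), both with mean signals below the median of all probe sets. The STEAP relatives Steap1, Steap2 and Steap3 had changes of -0.003, 0.28 and -0.07, and 0 of the 3 reached an unadjusted p under 0.05.

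Other genes of these pathways were read from 12 lists with 1 probe set per gene, the one of highest mean, and p-values adjusted over 18193 genes. Of 101 measured genes 0 passed the adjusted threshold, beside 9 of 18193 genes (0.0495%). At an unadjusted p under 0.05 there were 12 higher and 5 lower, 16.8% of the 101, beside 9.14% of all genes (4.40% higher and 4.74% lower). Of the 101 changes 71 were above 0, beside 45.3% of all genes, and the median change was 0.06 over the 101 and -0.02 over all genes.

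Among ligands of the IL-6 family there were 0 of 6 at an unadjusted p under 0.05 and changes from -0.05 to 0.18. Il6 itself had a change of 0.03, and its mean signal stood at the 6.91 percentile of all probe sets, where RMA is known to compress differences. Of the other receptors of the family 2 of 4 reached an unadjusted p under 0.05, both higher, beside 9.14% of all genes in either direction. Osmr, the oncostatin M receptor, had a change of 0.47 (adjusted p = 0.434) and Lifr, the leukaemia inhibitory factor receptor, one of 0.46 (adjusted p = 0.518). The other probe sets of these genes gave smaller values, 0.02 and -0.04 for Osmr and 0.21 and 0.08 for Lifr. Among JAK kinases and STAT partners 4 of 9 reached an unadjusted p under 0.05, all 4 of them lower, beside 4.74% of all genes lower. These were Stat5b (-0.35, groups not overlapping), Stat5a (-0.50), Stat4 (-0.31, also not overlapping) and Stat2 (-0.40), with adjusted p from 0.349 to 0.457. Over all 18193 genes 491 were lower and 354 higher without overlap, 4.64% together. The probe sets of Stat4 and Osmr had mean signals of 3.01 and 3.69, below the median of 3.94 over all probe sets. The second Stat5b probe set had a change of -0.32 and that of Stat5a one of -0.11. Of 13 brakes on the pathway 2 reached an unadjusted p under 0.05, both higher, beside 9.14% of all genes in either direction. These were Socs4 (0.46) and Cish, a SOCS relative best known for restraining STAT5 signalling (0.82). The other Socs4 probe sets had changes of 0.18, -0.03 and 0.04. Cish had 7.002, 7.48, 6.91 and 6.68 in MTAP+/- and 5.77, 6.00, 5.58 and 7.45 in MTAP+/+ livers. Wild-type replicate 4 lay among the MTAP+/- values, and the change was 1.23 without it.

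All 7 IL-1 family ligands had changes above 0, beside 45.3% of all genes, and 3 reached an unadjusted p under 0.05, beside 9.14% of all genes. Il33, an alarmin of this family, had 4.30, 4.34, 4.19 and 4.09 in MTAP+/- and 3.85, 3.64, 3.63 and 3.78 in MTAP+/+ livers. The groups did not overlap, and the change was 0.50 ± 0.10 (SE, adjusted p = 0.168). Il1a had a change of 0.49 and Il1b one of 0.39 (adjusted p = 0.365 for each), and both code for agonists of IL-1R1. The mean Il33 signal lay near the median of all probe sets, and no detection call was available for it. Of 6 other receptors of the family 5 had changes below 0 and 0 reached an unadjusted p under 0.05, with Il1r2, a decoy receptor, at -0.24. The groups did not overlap for Il1r2. Among 12 signal carriers Irak2, a kinase of the IL-1 receptor complex, reached it (-0.67, adjusted p = 0.495).

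NF-kappaB genes had 11 of 14 changes above 0, beside 45.3% of all genes. At an unadjusted p under 0.05 there were 3, all higher, beside 9.14% of all genes. Nfkbiz, an inducible nuclear regulator of NF-kappaB and of secondary IL-1 and Toll responses, had 5.25, 6.26, 6.66 and 7.44 in MTAP+/- and 4.07, 5.63, 4.12 and 4.03 in MTAP+/+ livers. Wild-type replicate 2 was above heterozygous replicate 1, and the change was 1.94 ± 0.45 (SE, adjusted p = 0.234). Its other 2 probe sets had changes of 0.40 and 0.29. Relb, an NF-kappaB subunit, had a change of 0.48 without overlap (adjusted p = 0.339), and Nfkbia, the feedback inhibitor, one of 0.28 (adjusted p = 0.489), with 0.07 to 0.31 at its other 4 probe sets. Of the other lipopolysaccharide sensing genes Tlr2 had a change of 0.48 (adjusted p = 0.40), and it was 1 of 5 at an unadjusted p under 0.05.

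**Figure D4:**
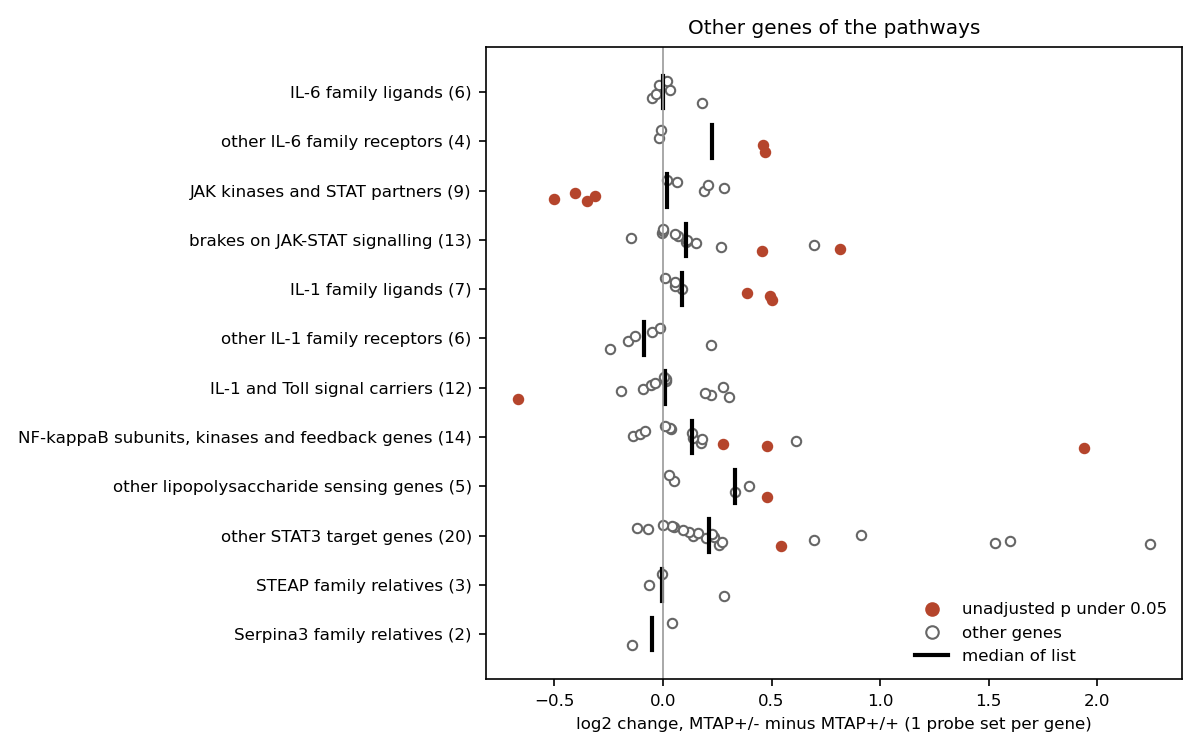
Change of each gene in the 12 pathway lists (log2 scale, MTAP+/- minus MTAP+/+, number of measured genes in brackets), with filled points for an unadjusted p under 0.05 and bars for list medians. Nfkbiz (1.94) and Saa2 (2.24) lie farthest to the right, and Saa2 is an open point whose change was 1.40 without heterozygous replicate 4.

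Other STAT3 targets were listed for their known response to IL-6 in liver, with earlier results of these data known. Of their 20 changes 18 were above 0, beside 45.3% of all genes. The median was 0.21, beside -0.02 over all genes, and 0 of the 20 passed the adjusted threshold. Junb, an AP-1 subunit, was the 1 of 20 at an unadjusted p under 0.05 (0.54, adjusted p = 0.349), beside 9.14% of all genes. Saa1, a serum amyloid, had 10.11, 11.25, 13.21 and 13.30 in MTAP+/- and 12.25, 9.19, 10.31 and 10.01 in MTAP+/+ livers, and Saa2 the same order of the 3 highest livers. The liver order of Saa1 differed from that of Socs3, since heterozygous replicate 1 was second highest for Socs3 and among the lower livers for Saa1, and wild-type replicate 1 was high for Saa1 but not for Socs3. Changes were 1.53 for Saa1 and 2.24 for Saa2 (adjusted p = 0.595 and 0.593). The high livers for Saa2 were heterozygous replicates 3 and 4, at 12.14 and 12.97, and its change was 1.40 without heterozygous replicate 4. Hpx, the haem scavenger, had a change of 0.26, and 0.16 without wild-type replicate 2. Gadd45g, a stress-response gene noted after its values were seen, had 7.70, 5.94, 8.19 and 6.92 in MTAP+/- and 6.89, 6.93, 5.91 and 6.25 in MTAP+/+ livers. It shared with Socs3 the order of the 4 MTAP+/- livers, while its groups overlapped.

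Genes with the nearest profiles were sought by the mean absolute difference, over the 8 livers, of values centred on each gene's own mean. For Socs3 these were Gdap10 (0.40), Gm4274 (0.41) and Cap1 (0.46), where the mean absolute deviation of Socs3 itself was 1.03. Grn, the gene of progranulin, was nearest to both Stat3 (0.08) and Cd14 (0.11), and Ms4a6c and Cnn2 followed for Cd14. For Steap4 they were Serping1 (0.10), the C1 inhibitor, Pros1 (0.11), the anticoagulant protein S, and Abca8b (0.11). Among these, Pros1 had a change of 0.59 and Serping1 one of 0.40. The nearest genes were picked from 18193, so the distances describe these 8 livers only.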

How the data were processed

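Per the labels' protocols, TRIzol RNA of 8 livers was biotin-labelled for the arrays. The authors deposited log2 values, summarised per probe set by RMA per the submitters' processing notes, and its settings are not stated there. They ran from 1.64 to 14.7. No detection calls were used, and the number of arrays limits the precision. Of 45101 probe sets 64 controls were left out. The platform annotation gives 1 symbol for 34945 and several for 932. MTAP+/- and MTAP+/+ livers were compared with limma 3.58.1 in R 4.3.3 (lmFit, eBayes, two-sided, genotype as the sole term), with Benjamini-Hochberg adjustment over all 45037 probe sets for members and over 18193 genes for pathway lists and markers. P-values treat livers as independent animals; shared litters or batches are unknown. Exact permutation covered 70 assignments. On simulated data for this comparison (45037 probe sets, 200 changed, 10 runs) limma recovered 79.8% of changes of 1 log2 unit and 98.2% of 2 units, with 4.54% false calls. These shares cover the changed probe sets together and do not give the recovery for widely varying ones. Changes of 1.84 (Socs3), 1.94 (Nfkbiz) and 2.24 (Saa2) were not called here. Named were all member probe sets, Mtap, up to 4 genes of smallest p per list and the 3 nearest profiles per member. Besides these, Arntl, Dbp, Gadd45g and further Kupffer markers were named after values were seen. Members and lists were chosen with earlier results of these data known. Alternatives were trend and robust eBayes, no dim probe sets, renewed quantile normalisation, centring, array weights, no x, s or a suffix probe sets, a replicate block and each array left out. Of the 24 member probe sets 21 passed the filter on dim signals.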

Additional observations from a re-analysis of the deposited data

Results flagged for a closer look

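One value stood apart within its group by Dixon's test, among 48 groups of 4 livers tested, where chance alone flags about 1 in 20. Il1rn at 1423017_a_at was 5.30 in wild-type replicate 3, below 5.47 in the nearest of the other 3 MTAP+/+ livers.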

How the results depend on the processing

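No member probe set passed the adjusted threshold of 0.05 in any of the 15 alternative fits or with 1 probe set per gene. At a threshold of 0.1, applied to the fit as planned, 0 members passed. The lowest adjusted p in the alternative fits was 0.0580, which is under 0.1, for Socs3 at 1455899_x_at without heterozygous replicate 2. At that probe set the adjusted p reached 0.630 without wild-type replicate 1. Members at an unadjusted p under 0.05 numbered 5 in the fit as planned, 3 with dim probe sets left out, 3 with renewed quantile normalisation, 3 with arrays centred, 2 without the x, s and a suffix kinds (which leave 15 members, and of Socs3 just the third probe set), and 3 to 5 when 1 liver was left out. Called probe sets numbered 16, with 5 to 21 when 1 liver was left out and 25 with the replicate block. The replicate block left 0 members called and 4 at an unadjusted p under 0.05. With the block the adjusted p of Steap4 at 1460197_a_at was 0.199, compared with 0.437 without it. Same-numbered livers correlated between -0.07 and 0.23 in their deviations, and 4 of 8 livers correlated best with their own number. These values do not settle whether the numbers pair livers, and the main fit used no pairing. Signs held in every alternative at 16 of 24 member probe sets and turned at 8 with small changes. Pathway genes at an unadjusted p under 0.05 numbered 17, and 12 to 23 when 1 liver was left out. RMA signals near the lowest, as for Il6, limit what can be seen.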
